A study of Mus musculus with 10 samples.

Results

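Neuropeptide genes and the genes of their receptors were followed in the hippocampus of Dp1Rhr mice, 45 genes in all, made up of 24 ligands and 21 receptors named by symbol. A probe set was used where it was annotated with exactly 1 of these symbols, and the brightest one by mean signal over the arrays stood for its gene. That left 44 of the 45 genes among 19938 genes tested: 23 ligands and all 21 receptors. Calca, the gene of calcitonin gene-related peptide, had no such probe set here and was not analysed. The arrays, 1 for each mouse, were run on total RNA from the right and left hippocampus together, for 5 Dp1Rhr males and 5 male control mice, all 16 weeks old and kept on a C57BL/6N background per the labels. The study's methods instead name C57BL/6J as the background to which its duplication lines were backcrossed. Dp1Rhr, or Dp(16Cbr1-Fam3b)1Rhr, carries a tandem duplication of the segment of mouse chromosome 16 from Cbr1 to Fam3b, so that its genes are present in 3 copies, and it is used as a partial model of Down syndrome. The control mice were wild-type littermates from the cross of the Dp1Rhr and Dp5Yah lines, and the same controls served the other genotypes of that cross. The comparison asks how these genes are expressed when the segment is present in 3 copies. The values are deposited log2 RMA signals, so a log2 fold change is a difference of these values. A probe set's level cannot be set against that of another, and values are compared only between mice for the same gene.

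Neuropeptides are short signalling proteins cut from larger precursors in the secretory pathway, stored in dense-core vesicles and released during sustained firing. Nearly all of them act on G protein-coupled receptors, and in the hippocampus most are made by GABAergic interneurons, where Npy, Sst, Vip and Cck mark interneuron classes, while granule cells of the dentate gyrus make opioid and other peptides. The duplicated segment runs on GRCm38 from the start of Cbr1 at chr16:93607837 to the end of Fam3b at position 97504936. The 44 genes lie on 18 chromosomes. Sst is the 1 gene of them on chromosome 16, at chr16:23889573-23891342, outside the duplicated segment, and 0 of the 44 lie inside it. All of them are therefore present in equal copy number in both groups. Dyrk1a, a kinase gene inside the segment, served as a check of the labels: its signal lay between 11.65 and 11.80 in control and between 11.97 and 12.06 in Dp1Rhr. For the genes at the ends of the segment the groups overlapped. Cbr1 was at 9.13 to 9.27 in control and 8.93 to 9.35 in Dp1Rhr, and Fam3b at 5.49 to 5.57 and 5.43 to 5.59.

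Many peptide genes are known to be switched on by cyclic AMP, through the cyclic AMP response element, TGACGTCA, which reads the same on both strands. Promoter windows from 250 bases before to 50 bases after the start site (RefSeq, GRCm38.p6) were at hand for 37 of the 44 genes. The full element was found in 3 of these 37 (8.11%), Sst, Cartpt and Sstr2, and in 549 of 27025 genes with a window (2.03%). The shorter core TGACG, searched on both strands and also part of every full element, was found in 16 of 37 (43.2%) against 23.0% of the same 27025 genes. These are all genes with a window and are not limited to those measured here, so the shares come from unlike sets. The stretches of 70 bases around the full element are shown because these 3 promoters carry it. Each is written 5′ to 3′ on the strand of its gene, at chr16:23890854-23890923 (minus strand) for Sst, chr13:99900757-99900826 (minus strand) for Cartpt and chr11:113619238-113619307 (plus strand) for Sstr2, with the element in capitals.
Sst: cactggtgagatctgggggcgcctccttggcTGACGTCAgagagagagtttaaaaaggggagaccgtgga
Cartpt: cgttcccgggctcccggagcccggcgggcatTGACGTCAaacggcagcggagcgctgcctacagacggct
Sstr2: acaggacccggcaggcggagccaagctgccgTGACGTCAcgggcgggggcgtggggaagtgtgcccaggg
The element began 48 bases before the start site in Sst, 112 in Cartpt and 58 in Sstr2. The start site is the one the promoter window was built on. For Sst and for Cartpt (chr13:99898483-99910179) the stretch lies inside the span of the gene, so that start site is not the outer end of the span. A match of letters is a description and not a shown binding site. The log2 fold changes of these genes between Dp1Rhr and control were 0.18, -0.0097 and 0.13, and none of the 3 passed the test given next.

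Some control arrays stood apart in ways that touch the results. Control replicates 2 and 3 held less signal of choroid plexus, the secretory tissue that lies against the hippocampus in the ventricle: Ttr, its most typical gene, was at 9.53 and 9.83 there, at 13.24 to 13.45 in the other control arrays and at 13.21 to 13.61 in Dp1Rhr. The mean over 17 choroid plexus genes was 6.89 and 7.08 in these control arrays, 8.16 to 8.76 in the other controls and 8.35 to 9.13 in Dp1Rhr. The same pair was highest in the mean over 20 immediate early genes, with 9.22 and 9.48 against 8.79 to 8.995 in the other controls and 8.65 to 8.74 in Dp1Rhr. limma called 0 of the 17 choroid plexus genes, with 13 at an unadjusted p under 0.05, and 2 of the 20 immediate early genes, Junb and Dusp1, both lower. All 20 immediate early genes had a lower mean in Dp1Rhr. Of them, 17 had an unadjusted p under 0.05, against 15.0% of all genes, and 7 had groups that did not overlap, against 3.52% of all genes. The part of these differences in the results below was not tested. Without both arrays the sign of the log2 fold change turned for 9 of the 44 genes, 3 ligands and 6 receptors, and with a choroid plexus score as a covariate for 7, 2 ligands and 5 receptors.

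Between Dp1Rhr and control, 0 of 23 ligands and 0 of 21 receptors passed limma's test at an adjusted p of 0.05, where 0.802% of all genes did (160 of 19938, 125 higher and 35 lower in Dp1Rhr). At an unadjusted p under 0.05 there were 7 of the 44 (15.9%), close to the 15.0% of all genes. They were Npy, Tac1, Tac2 and Gal among the ligands and Glp1r among the receptors, each with a higher mean in Dp1Rhr, and the receptors Sstr4 and Vipr1, each with a lower mean. All 4 ligands were on the higher side (17.4% of 23, against 8.55% of all genes higher at that p), while the receptors held 1 higher and 2 lower (6.44% of all genes were lower). The split of the 7 into 5 higher and 2 lower moved with the setting. It was 4 and 5 with centred arrays, 4 and 4 after a second quantile normalization, 7 and 2 without control replicates 2 and 3, 11 and 2 with the choroid plexus score and 2 and 3 with a habenula score. The share of all genes at that p was not counted in these settings. In 0 of the 44 did the arrays of one group lie wholly above those of the other, which was so for 3.52% of all genes. FCROS, the rank method the study used, called 3 ligands, Npy, Tac1 and Tac2, and 1 receptor, Glp1r, all higher, against 5.39% of all genes. Whole hippocampus was measured, so fewer cells of a type and less RNA per cell cannot be told apart in any of these values.

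The sign of the differences was counted for each kind of gene, and the balance of ligands was not tested against that of receptors. The log2 fold change was above 0 for 16 of 23 ligands (69.6%) and 6 of 21 receptors (28.6%), against 49.9% of all genes, and its median was 0.04 for ligands, -0.05 for receptors and about 0 for all genes. Among genes at or above the 40th percentile of mean signal it was above 0 for 10 of 14 ligands and 4 of 17 receptors. The 13 dim genes, those under this percentile, were 9 ligands (Pdyn, Crh, Gal, Trh, Pomc, Avp, Hcrt, Pmch and Nmb) and 4 receptors (Tacr3, Oprm1, Oprk1 and Galr1). These counts describe the lists, since genes of 1 array set are not independent. When the gene medians of the arrays were set equal, the ligand and receptor medians were 0.01 and -0.07, and in a fit that held choroid plexus signal as a covariate they were 0.09 and 0.05. Without control replicates 2 and 3 they were 0.05 and 0.0099, so the opposite signs of the medians were lost in both of these settings. The fold change was then above 0 for 17 ligands and 12 receptors, and with the choroid plexus score for 18 and 11.

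**Figure D1:**
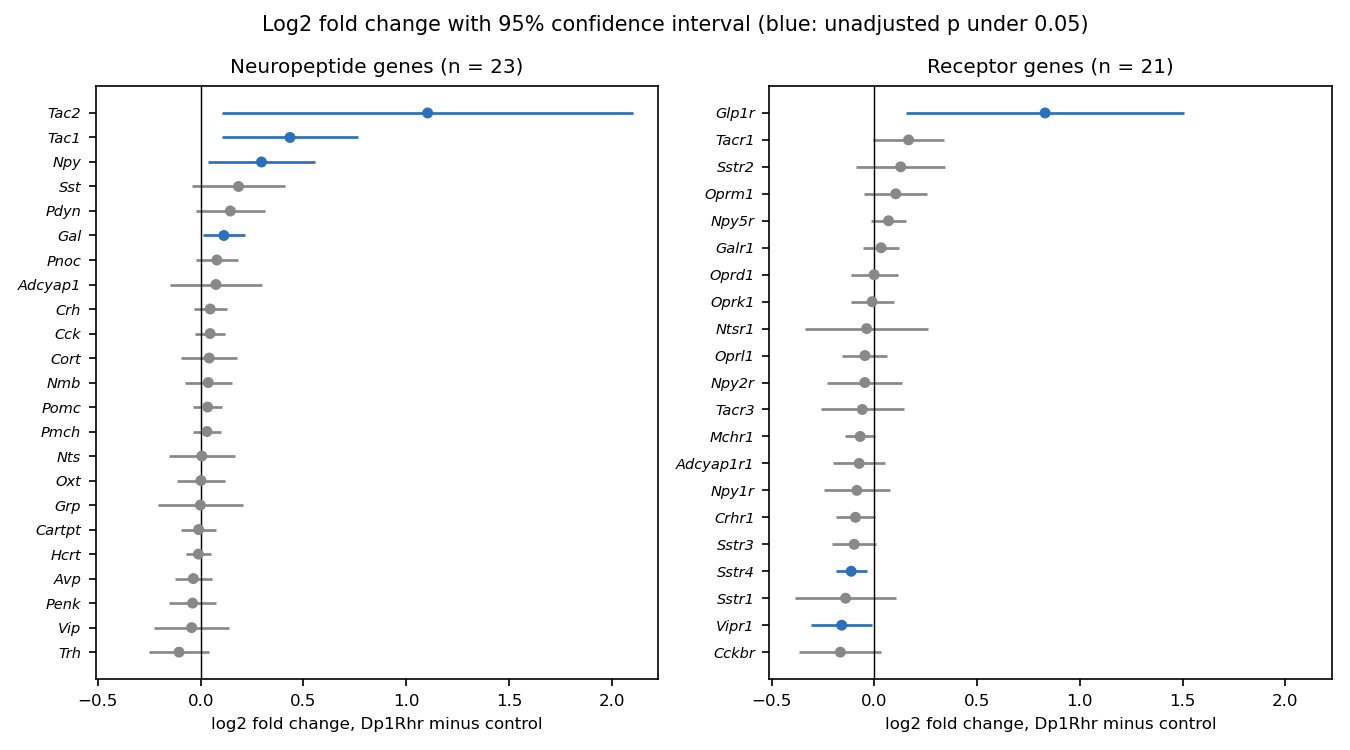
Log2 fold change (Dp1Rhr minus control, horizontal axis) of the 23 ligand genes (left) and 21 receptor genes (right), each point with its 95% confidence interval from limma, n = 5 arrays a group; blue marks an unadjusted p under 0.05. The ligands Tac2, Tac1 and Npy and the receptor Glp1r lie farthest to the right, Tac2 with an interval from 0.11 to 2.10, while 15 of the 21 receptors lie left of 0.

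Npy encodes neuropeptide Y, made in hippocampal interneurons and known to restrain glutamate release (chr6:49822710-49829507). Its signal was 10.58, 11.07, 11.24, 10.73 and 11.05 in control replicates 1 to 5 and 11.28, 11.26, 10.95, 11.41 and 11.24 in Dp1Rhr replicates 1 to 5. Control replicates 1 and 4 were the lowest arrays, control replicate 3 was just below Dp1Rhr replicate 5, and the groups overlapped only through Dp1Rhr replicate 3. The log2 fold change was 0.30 ± 0.12 (SE, with an adjusted p of 0.263 in limma), a 1.23-fold ratio, with a 95% confidence interval of 0.034 to 0.56 on the log2 scale. Sst encodes somatostatin, the peptide of interneurons that contact the distal dendrites of pyramidal cells and whose promoter carries the element printed above. Its signal was 11.47, 11.87, 12.09, 11.65 and 11.87 in control and 12.07, 11.99, 11.77, 12.13 and 11.91 in Dp1Rhr, in replicate order. The 2 lowest arrays were again control replicates 1 and 4, and the groups overlapped. Sst had a log2 fold change of 0.18 ± 0.10 (SE, with an adjusted p of 0.456 in limma). Without control replicates 2 and 3 the log2 fold change was 0.44 for Npy (limma, adjusted p = 0.161) and 0.31 for Sst (adjusted p = 0.216). With the habenula score, described with Tac2, as a covariate it was 0.24 for Npy (adjusted p = 0.592), and with the choroid plexus score it was 0.51 for Npy (adjusted p = 0.146) and 0.37 for Sst (adjusted p = 0.189).

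Tac1 (chr6:7555061-7562978), which encodes substance P and neurokinin A, had signals of 7.75, 7.96, 8.48, 7.90 and 8.09 in control and 8.18, 8.56, 8.16, 8.86 and 8.58 in Dp1Rhr. Its 3 highest arrays were Dp1Rhr replicates 4, 5 and 2, with control replicate 3 next, and the other 4 controls were below every Dp1Rhr array. The log2 fold change was 0.43 ± 0.15 (SE, with an adjusted p of 0.194 in limma), with a log2 interval of 0.10 to 0.77. Control replicates 1 and 4 were the lowest arrays here as for Npy and Sst: at most 7.90 for Tac1, 10.73 for Npy and 11.65 for Sst, where the lowest of the other 8 arrays had 7.96, 10.95 and 11.77.

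Tac2 (chr10:127724478-127731768) encodes neurokinin B, and it had the widest spread of the 44 genes. The signal was 7.58, 7.98, 9.20, 7.54 and 7.62 in control and 7.93, 9.87, 8.995, 10.34 and 8.30 in Dp1Rhr. Control replicate 3 and Dp1Rhr replicates 2, 3 and 4 had 8.995 to 10.34, while the other 6 arrays, of both groups, had 7.54 to 8.30, so each group was split and the groups overlapped. Tac2 had a log2 fold change of 1.10 ± 0.46 (SE, with an adjusted p of 0.276 in limma), a 2.15-fold ratio with a log2 interval of 0.11 to 2.10. Tac2 is strongly expressed in the medial habenula, a nucleus that lies close to the hippocampus, and the same 4 arrays were the highest of all for 8 of 9 habenula marker genes. Among these, Chrna3, a nicotinic receptor subunit, was at 7.26 to 8.82 in the 4 arrays and at 6.08 to 6.36 in the other 6, and Gpr151, an orphan receptor of habenular neurons, at 6.32 to 7.47 against 6.12 to 6.26. Irx2 was the marker that did not follow this order. The mean over the 9 markers was 6.83 to 7.15 in control and 6.77 to 7.82 in Dp1Rhr, and 0 of the 9 passed limma's test, with Gpr151, Chrna3 and Chrnb4 at an unadjusted p under 0.05. With a habenula score for each array as a covariate, the log2 fold change of Tac2 was 0.28 (limma, adjusted p = 0.668) and that of Tac1 0.27 (adjusted p = 0.563). The part of habenula tissue in these values was not tested. Since most of the high arrays were of Dp1Rhr, it cannot be told apart from the duplication here. Without control replicates 2 and 3, Tac2 had 1.51 (adjusted p = 0.216) and Tac1 0.56 (adjusted p = 0.172). In that comparison Tac1, Tac2 and Crh had groups that did not overlap, 3 of 44 genes against 8.11% of all genes.

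**Figure D2:**
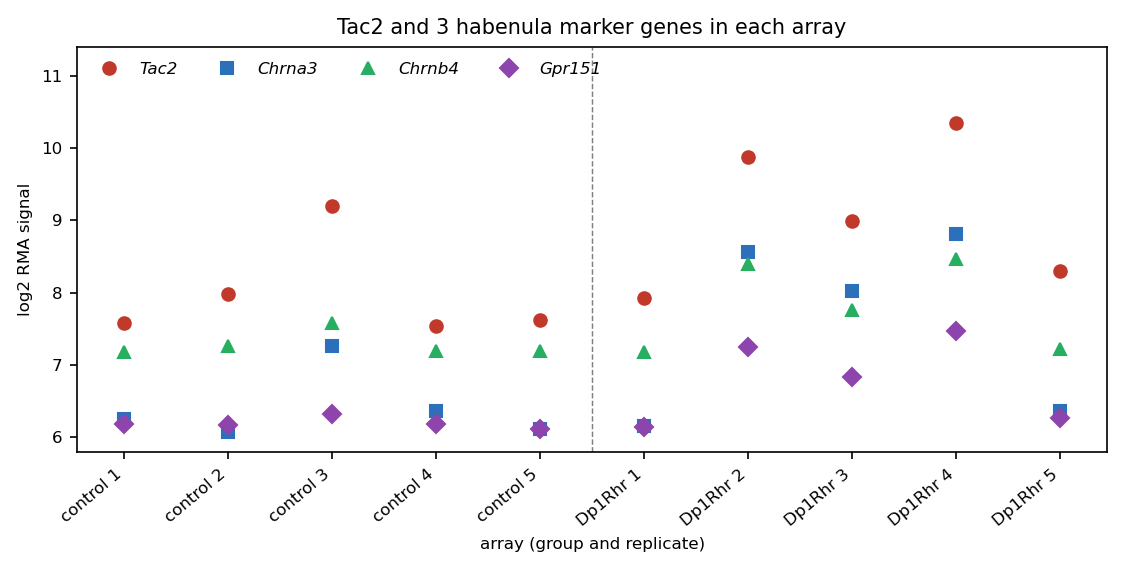
Log2 RMA signal (vertical axis) of Tac2 and of the habenula markers Chrna3, Chrnb4 and Gpr151 in each array, control replicates left of the dashed line and Dp1Rhr replicates right of it. Tac2 was at 8.995 or above in control replicate 3 and Dp1Rhr replicates 2, 3 and 4, and all 3 markers were highest in those arrays.

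Gal, a dim gene that encodes galanin (chr19:3409915-3414544), had signals of 6.68, 6.57, 6.63, 6.56 and 6.61 in control and 6.80, 6.80, 6.57, 6.67 and 6.75 in Dp1Rhr. Dp1Rhr replicates 1, 2 and 5 were above every control, and replicates 3 and 4 were inside the control range. Its log2 fold change was 0.11 ± 0.047 (SE, with an adjusted p of 0.277 in limma). Without Dp1Rhr replicate 3 it was 0.15 (adjusted p = 0.0787), and with the choroid plexus score 0.066 (adjusted p = 0.716).

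Vip encodes vasoactive intestinal peptide, the mark of interneurons that inhibit other interneurons. Its signal was 8.14, 8.65, 8.41, 8.36 and 8.39 in control and 8.29, 8.18, 8.34, 8.51 and 8.39 in Dp1Rhr. Control replicates 2 and 1 were the highest and the lowest arrays, so the Dp1Rhr values lay wholly inside the control range, and the log2 fold change was -0.044 ± 0.083 (SE, with an adjusted p of 0.880 in limma). Its sign turned without control replicates 2 and 3, to 0.050 (adjusted p = 0.850), and with the choroid plexus score, to 0.12 (adjusted p = 0.550). Cck encodes cholecystokinin, the peptide of a class of basket cells that is also made in pyramidal cells. It was measured at 12.27, 12.32, 12.36, 12.22 and 12.34 in control and 12.40, 12.33, 12.35, 12.36 and 12.30 in Dp1Rhr, a narrow range over all arrays, with a log2 fold change of 0.046 ± 0.034 (SE, with an adjusted p of 0.599 in limma).

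Penk and Pdyn encode the precursors of the enkephalins and dynorphins, the opioid peptides of the hippocampus. Penk had signals of 10.48, 10.35, 10.67, 10.46 and 10.49 in control and 10.48, 10.36, 10.51, 10.42 and 10.46 in Dp1Rhr, with both the highest and the lowest array in control and a log2 fold change of -0.040 ± 0.053 (SE, with an adjusted p of 0.812 in limma). Pdyn, just under the 40th percentile of signal, had 6.50, 6.65, 6.89, 6.66 and 6.86 in control and 6.98, 6.84, 6.97, 6.79 and 6.71 in Dp1Rhr. Dp1Rhr replicates 1 and 3 were above every control array and the rest overlapped; the log2 fold change was 0.14 ± 0.077 (SE, with an adjusted p of 0.425 in limma). Crh, a dim gene that encodes corticotropin-releasing hormone, had 5.29, 5.42, 5.44, 5.33 and 5.36 in control and 5.40, 5.39, 5.46, 5.47 and 5.36 in Dp1Rhr. These groups overlapped, and the log2 fold change was 0.046 ± 0.037 (SE, with an adjusted p of 0.635 in limma). With the choroid plexus score it was 0.12 for Crh and 0.23 for Pdyn.

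**Figure D3:**
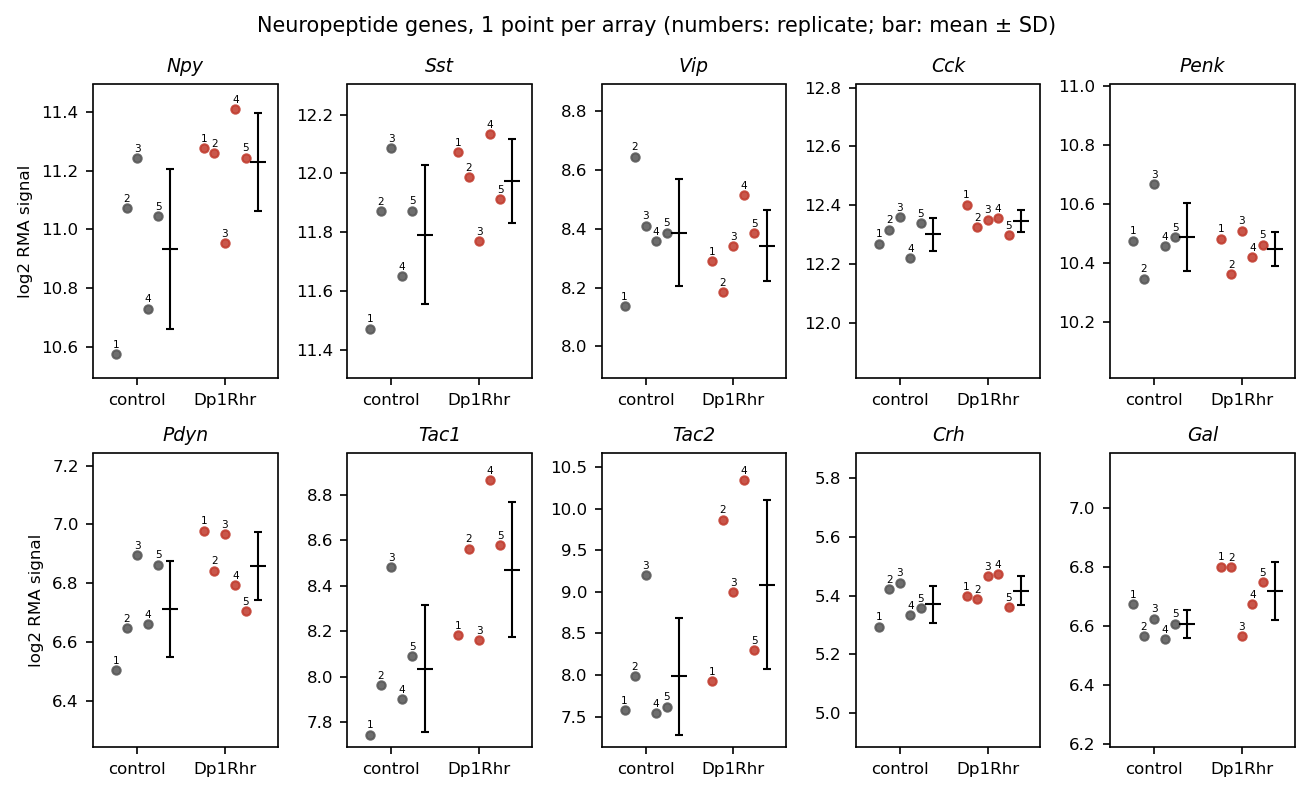
Log2 RMA signal of 10 neuropeptide genes in each array (points, numbered by replicate; control grey, Dp1Rhr red) with the group mean ± SD (n = 5), each panel on its own scale. Npy, Sst and Tac1 were lowest in control replicates 1 and 4, Tac2 split both groups, and the groups of every panel overlapped.

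The other 13 ligands had log2 fold changes from -0.11 (Trh, thyrotropin-releasing hormone) to 0.08 (Pnoc, prepronociceptin), with adjusted p from 0.484 to 0.998 in limma. The 6 of the 13 that were dim were Trh, Pomc, Avp, Hcrt, Pmch and Nmb, most of which are known from hypothalamic neurons. Among 11 measured hypothalamus markers, 8 of them dim, 0 passed the test, against 0.802% of all genes. At an unadjusted p under 0.05 there were 0, against 15.0% of all genes, and the median log2 fold change was -0.01. Grp, gastrin-releasing peptide, had a log2 fold change of -0.0017, with 9.78 to 10.02 in control and 9.57 to 10.15 in Dp1Rhr. Adcyap1, which encodes the peptide PACAP, had 7.11 to 7.57 in control and 7.18 to 7.76 in Dp1Rhr, a log2 fold change of 0.074 that was 0.22 with the choroid plexus score and -0.063 with the habenula score. Cartpt, whose promoter is printed above, had 6.99 to 7.13 and 6.98 to 7.14.

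Among the receptors, those for neuropeptide Y come first. Npy1r, the postsynaptic receptor, had 9.26, 9.24, 9.35, 9.03 and 9.06 in control and 9.19, 9.05, 9.25, 8.91 and 9.14 in Dp1Rhr, and a log2 fold change of -0.085 ± 0.074 (SE, with an adjusted p of 0.673 in limma). Npy2r, the presynaptic receptor, had 9.36, 9.21, 9.38, 9.17 and 8.95 in control and 9.30, 9.25, 8.98, 9.09 and 9.21 in Dp1Rhr, and a log2 fold change of -0.046 ± 0.084 (SE, with an adjusted p of 0.874 in limma). For both, the arrays of the groups were interleaved. Without control replicates 2 and 3 the values were -0.013 for Npy1r and 0.0089 for Npy2r, whose sign turned in 3 of 20 settings. Npy5r, whose gene lies next to Npy1r on chromosome 8, had 7.09, 7.19, 7.15, 7.18 and 7.09 in control and 7.25, 7.14, 7.16, 7.19 and 7.31 in Dp1Rhr. Its Dp1Rhr replicates 5 and 1 were the highest arrays, the other 3 were inside the control range, and the log2 fold change was 0.069 ± 0.039 (SE, with an adjusted p of 0.445 in limma).

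The somatostatin receptors all signal through inhibitory G proteins. Sstr4 (chr2:148395377-148396764) had the smallest p of the 44 genes, with signals of 11.05, 11.11, 11.15, 11.17 and 11.14 in control and 10.97, 11.02, 10.94, 11.06 and 11.06 in Dp1Rhr. Only control replicate 1, at 11.05, reached into the Dp1Rhr range, where replicates 4 and 5 were at 11.06. Sstr4 had a log2 fold change of -0.11 ± 0.034 (SE, with an adjusted p of 0.142 in limma), a 0.925-fold ratio with a log2 interval of -0.19 to -0.037. With the arrays centred on their medians it was -0.14 (adjusted p = 0.0705), and the groups did not overlap. Sstr1 had 7.93, 8.57, 8.15, 8.05 and 7.97 in control and 8.04, 7.78, 7.88, 8.14 and 8.13 in Dp1Rhr, with control replicate 2 above all others and a log2 fold change of -0.14 ± 0.11 (SE, with an adjusted p of 0.638 in limma). That of Sstr1 was -0.032 without control replicate 2, 0.0099 without control replicates 2 and 3 and 0.052 with the choroid plexus score. Sstr2, whose promoter is printed above, had 7.79, 8.28, 8.21, 7.89 and 8.16 in control and 8.01, 8.24, 8.13, 8.43 and 8.17 in Dp1Rhr. As for Npy and Sst, control replicates 1 and 4 were its lowest arrays, and its log2 fold change was 0.13 ± 0.099 (SE, with an adjusted p of 0.620 in limma). With the choroid plexus score as a covariate that of Sstr2 was 0.34 (adjusted p = 0.139), and with the habenula score it was 0.013 (adjusted p = 0.982). Sstr3 had 7.99 to 8.19 in control and 7.91 to 8.07 in Dp1Rhr, a log2 fold change of -0.098 that was -0.033 without control replicates 2 and 3.

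Glp1r (chr17:30901867-30936510), the receptor for glucagon-like peptide 1, had the highest fold change of the receptors. Its signal was 8.05, 8.44, 8.77, 9.97 and 9.12 in control and 9.59, 9.87, 10.06, 9.95 and 9.03 in Dp1Rhr. Dp1Rhr replicates 1 to 4 were at 9.59 or above and 4 of 5 controls at 9.12 or below, but control replicate 4 lay among the high arrays and Dp1Rhr replicate 5 among the low ones. Glp1r had a log2 fold change of 0.83 ± 0.31 (SE, with an adjusted p of 0.224 in limma), a 1.78-fold ratio with a log2 interval of 0.15 to 1.51. Without control replicate 4 it was 1.11 (adjusted p = 0.0704), and without control replicates 2 and 3 it was 0.65 (adjusted p = 0.490).

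Vipr1 (chr9:121642716-121672954), a receptor for vasoactive intestinal peptide and PACAP, had 7.83, 8.14, 8.13, 7.86 and 8.02 in control and 7.81, 7.84, 7.77, 7.78 and 8.01 in Dp1Rhr. Control replicates 2 and 3 were the highest arrays, and Dp1Rhr replicate 5 was above 2 of the controls. The log2 fold change was -0.16 ± 0.068 (SE, with an adjusted p of 0.299 in limma), but it was -0.0090 in the dimmer of its 2 probe sets and -0.084 in their mean. Without control replicates 2 and 3 it was -0.067 (adjusted p = 0.716). Adcyap1r1, the receptor selective for PACAP, had 11.06, 11.18, 10.91, 11.08 and 11.06 in control and 10.90, 10.96, 11.18, 10.96 and 10.94 in Dp1Rhr. Its Dp1Rhr replicate 3 was high among otherwise low Dp1Rhr arrays and control replicate 3 low among high ones, and its log2 fold change was -0.073 ± 0.058 (SE, with an adjusted p of 0.632 in limma).

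Oprm1, the mu opioid receptor gene and a dim one, had 6.58, 6.67, 6.82, 6.69 and 6.59 in control and 6.65, 6.75, 6.71, 7.03 and 6.73 in Dp1Rhr. Dp1Rhr replicate 4 alone was above the controls, and the log2 fold change was 0.10 ± 0.070 (SE, with an adjusted p of 0.546 in limma). It was 0.040 without that array, 0.011 with the habenula score and 0.20 with the choroid plexus score. Oprd1, Oprk1 and Oprl1, the delta, kappa and nociceptin receptor genes, had log2 fold changes of -0.00064, -0.011 and -0.046. Crhr1, the main receptor for corticotropin-releasing hormone, had 7.76, 7.92, 7.92, 7.90 and 7.97 in control and 7.71, 7.79, 7.81, 7.90 and 7.81 in Dp1Rhr. Control replicate 1 was low and Dp1Rhr replicate 4 high, with the other controls above the other Dp1Rhr arrays, and the log2 fold change was -0.092 ± 0.045 (SE, with an adjusted p of 0.368 in limma), which was -0.032 with the choroid plexus score.

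**Figure D4:**
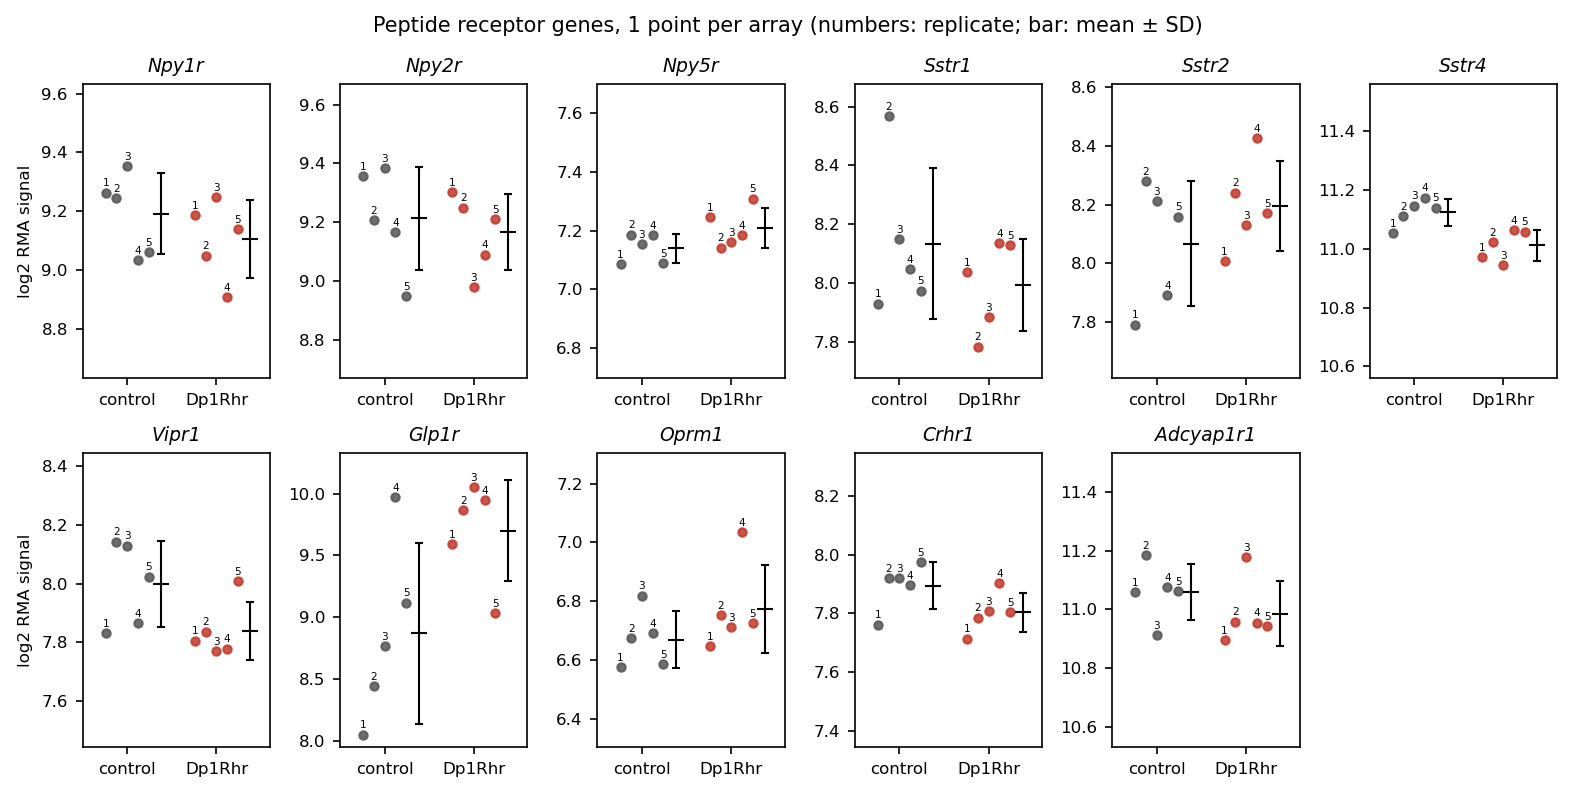
Log2 RMA signal of 11 peptide receptor genes in each array (points, numbered by replicate; control grey, Dp1Rhr red) with the group mean ± SD (n = 5), each panel on its own scale. Sstr4 was lower in all Dp1Rhr arrays than in 4 of the 5 controls, and for Glp1r control replicate 4 and Dp1Rhr replicate 5 lay apart from their groups.

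Of the tachykinin receptors, which bind the peptides from Tac1 and Tac2, Tacr1 had 6.77 to 7.02 in control and 6.79 to 7.26 in Dp1Rhr, a log2 fold change of 0.17 ± 0.079 (SE, with an adjusted p of 0.356 in limma). With the habenula score Tacr1 was at 0.046 (adjusted p = 0.862), and with the choroid plexus score at 0.31 (adjusted p = 0.173). Tacr3, the receptor preferred by neurokinin B, was dim, with a log2 fold change of -0.059 that turned to 0.035 without control replicates 2 and 3. Cckbr, the brain receptor for cholecystokinin, had a log2 fold change of -0.17 ± 0.091 (SE, with an adjusted p of 0.442 in limma), with 7.95 to 8.47 in control and 7.80 to 8.10 in Dp1Rhr. Its highest array was control replicate 2, without which it was -0.077, and with the choroid plexus score it was -0.011. Ntsr1, a neurotensin receptor gene, had a log2 fold change of -0.037, which was 0.11 without control replicates 2 and 3 and 0.27 with the choroid plexus score (adjusted p = 0.289). Mchr1, the receptor for melanin-concentrating hormone, had -0.069 ± 0.033 (SE, with an adjusted p of 0.355 in limma). The 10 receptors not given array by array had adjusted p from 0.355 to 0.999 in limma. The 95% confidence interval lay within 0.25 of 0 on the log2 scale for 29 of the 44 genes, 17 of 23 ligands and 12 of 21 receptors. For the other 15, among them Tac2, Glp1r, Tac1, Npy and Sst, the interval reached past 0.25 on at least one side. All dim genes except Pdyn, Tacr3 and Oprm1 were among the 29. No background level was at hand for dim genes, so a narrow interval there does not show that expression was unchanged. The median SE was 0.061 over the 44 genes and 0.042 over all genes.

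Genes that make, release or degrade peptides were set beside them. Of 17 measured genes of peptide processing and dense-core vesicle release 0 passed limma's test, and 3 (17.6%) had an unadjusted p under 0.05, against 15.0% of all genes. The smallest p were those of Qpct, which forms pyroglutamate at the start of some peptides, with a log2 fold change of 0.18 ± 0.060 (SE, with an adjusted p of 0.184 in limma), and Cadps, a factor for priming of dense-core vesicles, with a log2 fold change of -0.099 ± 0.042 (SE, with an adjusted p of 0.285 in limma). The third gene at that p was Scg5. The prohormone convertase gene Pcsk1 and the carboxypeptidase gene Cpe had log2 fold changes of 0.0053 and 0.0025. Of 15 peptidase genes 0 passed the test, and 3 (20%) had an unadjusted p under 0.05, again against 15.0% of all genes. The smallest p were those of Ece2, an endothelin-converting enzyme of neurons, with a log2 fold change of 0.13 ± 0.049 (SE, with an adjusted p of 0.217 in limma), and Ace, angiotensin-converting enzyme, with a log2 fold change of 0.74 ± 0.30 (SE, with an adjusted p of 0.270 in limma). Ace was at 8.03 and 8.01 in control replicates 2 and 3 and at 8.93 to 9.96 in the other 8 arrays, and choroid plexus is known to express it; the part of that tissue in the value was not tested. The third peptidase gene was Npepps. FCROS called Qpct, Ace and Cpq from these lists.

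Of 26 further ligand genes, 20 of them dim, 0 passed, and 1 (3.85%) had an unadjusted p under 0.05, against 15.0% of all genes. It was Apln, which encodes apelin, with a log2 fold change of 0.22 ± 0.070 (SE, with an adjusted p of 0.161 in limma). Next by p was Nps, a dim gene, with a log2 fold change of -0.047 ± 0.026 (SE, with an adjusted p of 0.442 in limma). Of 36 further receptor genes, 17 of them dim, 0 passed, and 8 (22.2%) had an unadjusted p under 0.05, against 15.0% of all genes. Mc3r, a dim melanocortin receptor gene, had a log2 fold change of 0.15 ± 0.041 (SE, with an adjusted p of 0.0985 in limma), with 5.87 to 6.05 in control and 6.05 to 6.22 in Dp1Rhr, every Dp1Rhr array above every control by a narrow margin. Ntsr2, a neurotensin receptor gene, had a log2 fold change of 0.23 ± 0.074 (SE, with an adjusted p of 0.164 in limma). Groups did not overlap for 2 of the 36, Mc3r and Hcrtr2, against 3.52% of all genes. Hcrtr2, an orexin receptor gene, was lower, with a log2 fold change of -0.14 ± 0.046 (SE, with an adjusted p of 0.174 in limma). FCROS called Apln, Ntsr2 and Calcrl from these lists.

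Markers of the cells that make the peptides gave the following values. Of 15 interneuron genes that are not peptides 0 passed limma's test, and the 5 with an unadjusted p under 0.05 (Gad2, Calb2, Dlx1, Dlx2 and Ndnf) all had a higher mean in Dp1Rhr. They were 33.3% of the list, where 8.55% of all genes were higher at that p. The log2 fold change was above 0 for 10 of the 15 genes and below 0 for 5, down to -0.082. The median log2 fold change of the list was 0.08, and the mean over it was 8.91 to 9.02 in control and 8.99 to 9.12 in Dp1Rhr, so that the groups overlapped. Gad2, the gene of a GABA-synthesising enzyme, had a log2 fold change of 0.085 ± 0.037 (SE, with an adjusted p of 0.304), and Calb2, which encodes calretinin, had 0.44 ± 0.14 (SE, with an adjusted p of 0.145). Calb2 was highest in Dp1Rhr replicates 4 and 2, at 10.56 and 10.38, as Tac2 was. Control replicate 3, high for Tac2, was at 9.90 for Calb2, inside the control range of 9.43 to 9.93. Of 8 dentate granule cell genes 1 passed, Tdo2, with a higher mean, where 0.802% of all genes passed. Of 12 genes of the CA fields 0 did, with Pou3f1, lower in Dp1Rhr, at an unadjusted p under 0.05 (8.33% of the list). Of 10 striatal genes 1 passed, Sh3rf2, with a higher mean, and Drd2 and Rgs9, also higher, had an unadjusted p under 0.05. These 3 were 30% of the list, against 15.0% of all genes at that p. Of 9 neocortical and 8 thalamic genes 0 passed, while Rorb and Ctxn3, and Tcf7l2, Slc17a6 and Zic1, had an unadjusted p under 0.05. The neocortical genes at that p were 1 higher and 1 lower in Dp1Rhr (22.2% of the list). The thalamic ones were 1 higher and 2 lower (37.5%), against 15.0% of all genes. Thalamic means were 8.43 to 9.01 in control and 8.39 to 8.73 in Dp1Rhr, and the part of such tissue in the peptide values was not tested. The marker genes in this paragraph, like Junb, Dusp1, Pcsk1, Cpe, Scg5, Npepps, Cpq, Calcrl and Hcrtr2, were named after their values were seen.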

How the data were processed

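Hippocampal RNA was hybridised to Affymetrix Mouse Gene 1.0 ST arrays, 1 for each mouse. The authors deposited log2 values made with RMA, which corrects background, quantile normalizes arrays and summarises probe sets. Besides RMA, limma and mm10 appear in the submitters' processing notes. The sources used here give no versions and do not say which arrays were normalized together. Quantile normalization hides a change of all genes at once. Of 35556 probe sets in the table, the platform annotation gave 21789 exactly 1 symbol, 1621 several and 12146 were not named, and 21698 matched RefSeq genes by Entrez ID. Of several probe sets the brightest was kept (999 genes).

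limma 3.58.1 in R 4.3.3 (lmFit, eBayes, two-sided, Benjamini-Hochberg over 19938 genes, adjusted p of 0.05) replaced FCROS as the main test, since FCROS calls fixed tails. FCROS (trim 0.25, limits 0.025 and 0.975) was an alternative, as were the settings in the closing section. The fit was tested on simulated data. The precision is limited by 5 arrays a group. Per the labels, the mice are biological replicates.

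The habenula and choroid plexus scores are list means of z-scored genes. Members and lists were chosen with earlier results of these data known. Given with every array are members with an unadjusted p under 0.05 or groups without overlap, and a fixed set of well-known hippocampal peptides and receptors; other members are given by range and count, and other pathway lists by the 2 genes with the smallest p.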

Additional observations from a re-analysis of the deposited data

Results flagged for a closer look

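An array was marked where its gap to the nearest of the other 4 in its group exceeded 0.71 of the group's range, a limit that chance passes in about 1 in 20 groups. Of 88 sets (44 genes in each group) 6 were marked, and no explanation of them was tested. Tac2, for neurokinin B, was at 9.201 in control replicate 3, where the other controls had 7.54 to 7.98. Tacr3, the neurokinin B receptor gene and a dim one, was at 5.9324 in control replicate 2, where the others had 5.42 to 5.52. Vipr1 was at 8.0095 in Dp1Rhr replicate 5, against 7.77 to 7.84. The opioid receptor genes Oprm1 and Oprk1, both dim, were high in Dp1Rhr replicate 4, at 7.0338 against 6.65 to 6.75 and at 5.2657 against 5.04 to 5.09. Adcyap1r1 was at 11.1766 in Dp1Rhr replicate 3, against 10.90 to 10.96.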

How the results depend on the processing

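None of the 44 genes passed limma's test in any of 20 settings, and the sign of the log2 fold change held in all of them for 29. FCROS called 3 ligands and 1 receptor, and 1 gene of processing and release, 2 of breakdown, 1 further ligand and 2 further receptors, against 5.39% of all genes. Members with an unadjusted p under 0.05 numbered 13 with the choroid plexus score as a covariate and 3 to 10 when single arrays were left out. The share of all genes at that p was 15.0% in the main fit and was not counted in these settings, so these counts have no background beside them. Members without overlap were 1 with arrays centred on their medians (Sstr4), 3 without control replicates 2 and 3 and 0 to 1 without single arrays: Sstr4 without control replicate 1, Tac1 without control replicate 3, Mchr1 without control replicate 5 and Npy without Dp1Rhr replicate 3. Of all genes, 3.52% did not overlap with every array kept and 8.11% without control replicates 2 and 3. The share was not counted in the other settings.

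The count over all genes, 160, was 280 with array weights, 1075 with FCROS (678 higher, 397 lower), 7 with the choroid plexus score, 5 with the habenula score and 5 without control replicates 2 and 3. It was 5 to 284 without single arrays: 19, 42 and 12 without control replicates 2, 3 and 5, and 5, 10, 12 and 284 without Dp1Rhr replicates 1, 2, 4 and 5. Centring gave 97 higher and 89 lower. The causes were not tested.

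With the replicate number as a block 4 genes and 0 members were called. Deviations of arrays with the same number correlated at 0.12, -0.33, -0.34, -0.08 and 0.07, in replicate order. Of the 5 Dp1Rhr arrays, 1 correlated best with the control array of its own number. The labels give the number without saying what it stands for, and whether it pairs the arrays was not tested.

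With 5 arrays a group the SE was 0.027 to 0.46 over the members, and the table gives no background level for the 13 dim genes.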
